A study of Mus musculus with 6 samples.

Results

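Cells sense oxygen largely through the hypoxia-inducible factors (HIFs), and the 10 genes described here encode those factors and the proteins that switch them off. They are Hif1a, Epas1, Hif3a, Arnt, Egln1, Egln2, Egln3, Vhl, Hif1an and Cited2. Each was found by its symbol in the authors' deposited table and had exactly 1 row there, so the 10 genes are 10 of the 25123 rows with a symbol and of 35556 rows in all. The samples were mesenchymal stem cells of the mouse, stromal cells that adhere in culture and come from bone marrow. One group, labelled MSC21, was a mixed population grown from mouse bone marrow (3 arrays), and the other was Clone 4L.1.4, a tertiary clone derived from that population (3 arrays). Both were grown in a stem cell medium to confluence as independent cell samples, with no other treatment named. The clone is a single clone, and the mouse strain, the age of the animals and the oxygen level of the cultures were not stated in the labels. The labels do not say whether the cell samples came from separate animals, so p-values measure the spread between these cultures.

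A HIF is a pair of proteins, an oxygen-regulated alpha subunit (encoded by Hif1a, Epas1 or Hif3a) and the constant beta subunit encoded by Arnt. When oxygen is present, the prolyl hydroxylases encoded by Egln1, Egln2 and Egln3 modify the alpha subunit, and the Vhl protein then recognises it and has it ubiquitinated and degraded. The asparaginyl hydroxylase encoded by Hif1an blocks the binding of the coactivators p300 and CBP, and Cited2 competes with the alpha subunit for the same coactivators. The alpha subunits are controlled mainly at the level of the protein, which these arrays do not measure. Egln1, Egln3 and Cited2 are themselves textbook targets of HIF, whereas Egln2 is not known as one.

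The prolyl hydroxylase genes are shown first by sequence, because the largest fall and the only rise among the 10 genes were found among them. The windows below run from 250 bases before to 50 bases after an annotated transcript start, are written 5′ to 3′ on the gene's strand and come from RefSeq (GRCm38.p6). All lie on the minus strand, at chr8:124949205-124949504 for Egln1, at chr12:54203825-54204124 for Egln3, and at chr7:27166753-27167052 and chr7:27165679-27165978 for the first and the second start of Egln2. Capitals mark ACGTG or GCGTG, the core letters of the element that HIFs bind, on either strand.
Egln1: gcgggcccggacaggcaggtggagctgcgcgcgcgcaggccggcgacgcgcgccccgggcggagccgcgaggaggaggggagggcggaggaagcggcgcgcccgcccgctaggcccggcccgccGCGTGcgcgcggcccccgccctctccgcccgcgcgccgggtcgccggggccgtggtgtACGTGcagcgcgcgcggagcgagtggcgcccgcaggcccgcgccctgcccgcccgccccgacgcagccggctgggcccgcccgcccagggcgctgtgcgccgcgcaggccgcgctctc
Egln3: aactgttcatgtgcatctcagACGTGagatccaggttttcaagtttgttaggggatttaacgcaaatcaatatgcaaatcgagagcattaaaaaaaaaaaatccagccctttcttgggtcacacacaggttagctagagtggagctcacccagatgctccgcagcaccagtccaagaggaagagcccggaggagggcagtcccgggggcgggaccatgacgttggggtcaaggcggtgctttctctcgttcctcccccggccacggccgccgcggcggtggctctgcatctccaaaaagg
Egln2, first start: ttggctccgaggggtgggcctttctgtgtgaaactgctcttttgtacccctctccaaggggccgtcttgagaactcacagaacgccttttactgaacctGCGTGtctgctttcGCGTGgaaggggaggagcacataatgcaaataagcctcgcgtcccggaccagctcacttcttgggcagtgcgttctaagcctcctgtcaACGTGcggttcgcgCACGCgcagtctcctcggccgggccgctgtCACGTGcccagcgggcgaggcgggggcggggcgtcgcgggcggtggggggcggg
Egln2, second start: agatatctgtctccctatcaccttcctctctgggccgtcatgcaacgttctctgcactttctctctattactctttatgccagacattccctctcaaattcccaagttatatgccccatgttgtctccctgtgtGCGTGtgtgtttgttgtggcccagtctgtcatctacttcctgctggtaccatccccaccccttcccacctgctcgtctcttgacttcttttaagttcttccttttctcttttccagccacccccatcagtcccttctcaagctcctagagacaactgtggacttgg

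The Egln1 window held ACGTG once, with its first base 68 bases before the start, and GCGTG once, 126 bases before it. The Egln3 window held ACGTG once, 229 bases before the start, and no GCGTG. The first window of Egln2 held both, ACGTG 3 times and GCGTG 3 times; 2 of the ACGTG matches overlap as the palindrome CACGTG, which spans the start. The other Egln2 window held only GCGTG, once. Of the 9 genes with a promoter entry, 5 held ACGTG (Hif1a, Egln1, Egln2, Egln3 and Cited2), 4 held GCGTG (Hif3a, Arnt, Egln1 and Egln2), and Vhl and Hif1an held neither. Among all 32851 promoter windows of this length, 19.6% held ACGTG and 32.4% GCGTG, and among the 19938 with at least 50 percent G and C the shares were 23.6% and 45.5%. These shares are per window, while the counts are per gene and take Egln2 over its 2 windows. A match describes the letters only.

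The arrays gave log2 expression values, with array medians between 5.19 and 5.25. Markers were used to check the labelled cell type. Of 14 mesenchymal stromal markers 13 reached an array median in at least 1 array, with Ly6a at 10.70 ± 0.11 and 9.72 ± 0.16 and Cd44 at 8.27 ± 0.16 and 7.46 ± 0.10 in the population and the clone (log2, mean ± SD, n = 3 each). The 14 markers went both ways in the clone, 4 higher, 7 lower and 3 not called, with log2 fold changes from -1.83 to 1.43. The share called was 78.6%, against 23.8% of all rows and 42.1% of rows above the median level. Pdgfra (1.43), Cxcl12 (1.21), Pdgfrb (0.77) and Prrx1 (0.50), named after their values were seen, were the 4 higher ones. Thy1 (6.43 to 4.61) and Nt5e (6.35 to 4.55) fell below the array medians in the clone, and Eng lay below them in every array. Alcam reached the median only in clone array 2 (5.23). The mean over the 14 was 8.65 to 8.70 per array in the population and 8.37 to 8.38 in the clone. Of 12 endothelial markers 10, and of 14 blood cell markers 11, lay below the median of every array. Pecam1 stood at 4.29 and 4.27, Cdh5 at 4.55 and 4.52 and Ptprc at 4.37 and 4.39. Of the endothelial markers 1 was called higher in the clone (Egfl7, 5.07 to 5.49) and 1 lower (Plvap, 5.23 to 4.98). Of the blood cell markers 2 were called higher (Lyz2, 5.38 to 5.73, and Itga2b, 5.28 to 5.56) and 1 lower (Cd14, 5.37 to 4.77). The shares called were 16.7% and 21.4%, against 23.8% of all rows. These called markers were named after their values were seen. In bulk samples such as these, fewer cells of a type and less RNA per cell cannot be told apart.

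Of the 10 genes, 5 fell in the clone (Egln3, Egln1, Hif1a, Arnt and Cited2), 1 rose (Egln2) and 4 did not pass the test (Epas1, Hif3a, Vhl and Hif1an). The test was limma's moderated test over all rows, with p-values adjusted by Benjamini-Hochberg and a threshold of 0.05. Over all rows 23.8% passed it, 12.8% as higher and 10.9% as lower in the clone. Among rows above the median level, where 8 of the 10 genes lay, 22.8% were higher and 19.3% lower. The median log2 fold change (clone minus population) was -0.23 over the 10 genes, 0.00 over all rows and 0.05 over rows above the median level. The 2 groups did not overlap in 8 of the 10 genes, against 37.2% of all rows. Among the 17778 rows above the median level they did not overlap in 10093, a larger share than over all rows.

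**Figure D1:**
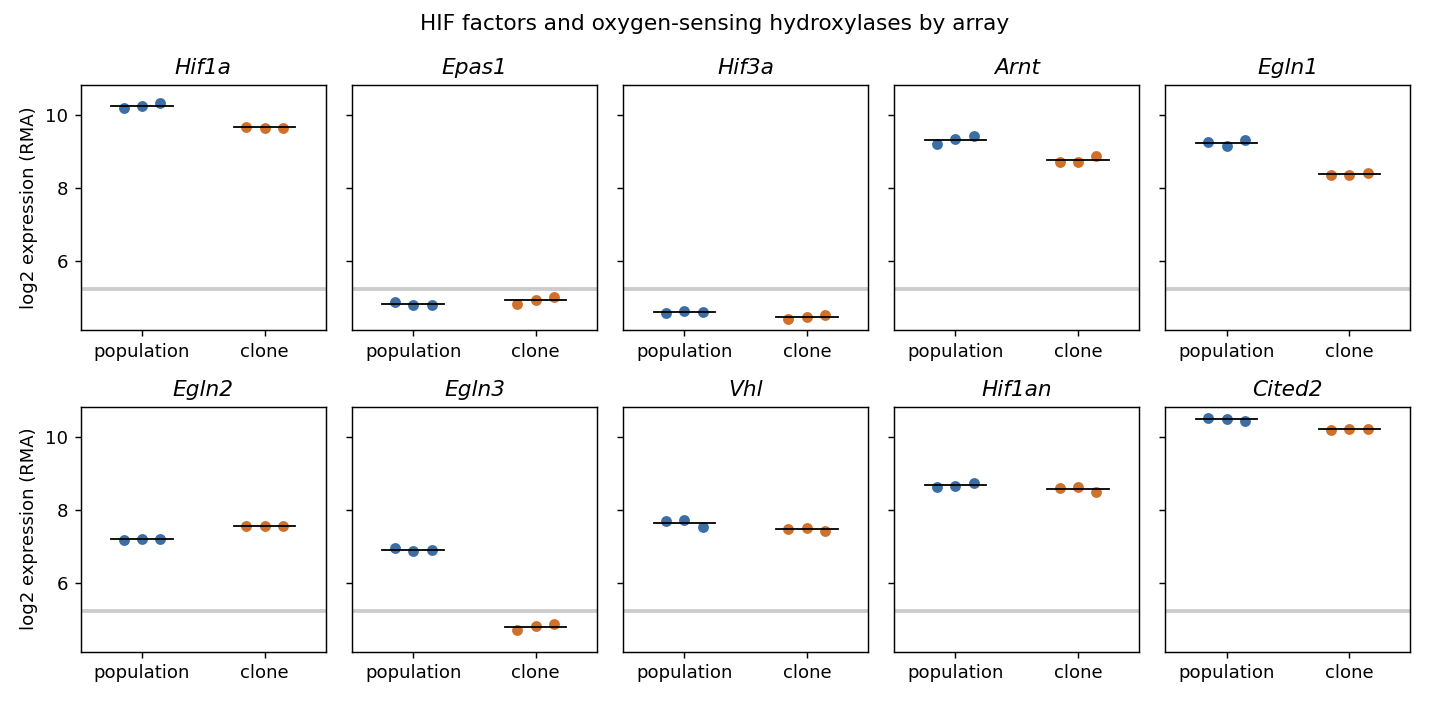
Log2 expression of the 10 genes in the 3 population arrays (blue) and the 3 clone arrays (orange); black lines are group means and the grey band spans the medians of the 6 arrays, 5.19 to 5.25. Egln3 goes from 6.91 to 4.79, below the band, while Epas1 and Hif3a lie below it in both groups.

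Among the alpha subunits, Hif1a, which drives most of the acute transcriptional response to hypoxia, read 10.20, 10.26 and 10.33 in the population and 9.69, 9.66 and 9.66 in the clone. Every clone array lay below every population array, and the clone arrays were tightly grouped. The log2 fold change was -0.59 ± 0.05 (SE; 95% interval -0.72 to -0.46; adjusted p = 0.000378), or 1.51-fold lower. Epas1, which encodes the second alpha subunit and is known for its role in endothelium, read 4.87, 4.80 and 4.78 in the population and 4.81, 4.93 and 5.0 in the clone. The groups overlapped, and all 6 values lay below the array medians. Its log2 fold change was 0.09 ± 0.06 (95% interval -0.06 to 0.25; adjusted p = 0.386). Hif3a, whose splice forms include inhibitors of the other alpha subunits, read 4.58, 4.62 and 4.59 in the population and 4.41, 4.47 and 4.51 in the clone. Its groups did not overlap, but all values lay below the array medians and the change was not called (-0.13 ± 0.05, adjusted p = 0.114). At such low levels the arrays limit what can be seen of Epas1 and Hif3a, and these values do not show that the genes were unchanged or unexpressed.

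Arnt, the beta subunit that also pairs with the aryl hydrocarbon receptor, read 9.21, 9.35 and 9.42 in the population and 8.71, 8.71 and 8.87 in the clone. All clone arrays were lower, with a log2 fold change of -0.57 ± 0.08 (95% interval -0.75 to -0.38; adjusted p = 0.00216). Arnt lies on chromosome 3, where the 545 genes above the median level had a median log2 fold change of -0.42. With that chromosome median removed, a setting chosen after seeing the data, Arnt stood at -0.14 (adjusted p = 0.28), so its fall was close to the median of its chromosome. Hif1a, on chromosome 12 (median 0.03), stood at -0.63 in the same setting (adjusted p = 0.000387).

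Egln1 encodes the prolyl hydroxylase that sets HIF levels in most cells at normal oxygen. It read 9.26, 9.17 and 9.33 in the population and 8.35, 8.36 and 8.42 in the clone. The groups were well apart, by a log2 fold change of -0.87 ± 0.06 (95% interval -1.02 to -0.73; adjusted p = 0.000114), or 1.83-fold lower. Egln3, the prolyl hydroxylase gene most sensitive to hypoxia in many cell types, read 6.95, 6.88 and 6.90 in the population and 4.70, 4.80 and 4.87 in the clone. This was the largest difference among the 10 genes, -2.12 ± 0.06 (95% interval -2.26 to -1.97; adjusted p = 3.56e-06), or 4.33-fold. The clone values lay below the array medians, so its size is not exact. Egln2, which encodes a mainly nuclear prolyl hydroxylase, read 7.16, 7.20 and 7.20 in the population and 7.57, 7.57 and 7.55 in the clone. It was higher in every clone array, by 0.38 ± 0.05 (95% interval 0.27 to 0.49; adjusted p = 0.00133), or 1.30-fold. With the median of its chromosome 7 (0.16) removed, Egln2 stood at 0.22 (adjusted p = 0.0168).

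Vhl, the recognition subunit of the ubiquitin ligase that degrades hydroxylated alpha subunits, read 7.69, 7.72 and 7.54 in the population and 7.47, 7.51 and 7.43 in the clone. The clone arrays were lower, though population array 3 came within a small distance of them. The log2 fold change of -0.18 ± 0.07 did not pass (95% interval -0.34 to -0.03; adjusted p = 0.0986). It passed without population array 3 (-0.24, adjusted p = 0.0425) and with the median of chromosome 6 (0.05) removed (-0.23, adjusted p = 0.0474). Hif1an, the asparaginyl hydroxylase gene, read 8.62, 8.66 and 8.74 in the population and 8.60, 8.64 and 8.49 in the clone. These overlapped and the difference did not pass (-0.10 ± 0.06, 95% interval -0.24 to 0.05, adjusted p = 0.372). With the median of chromosome 19 (-0.20) removed its sign turned, to 0.11 (adjusted p = 0.319).

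Cited2, which limits HIF activity by taking up its coactivators, read 10.53, 10.50 and 10.44 in the population and 10.20, 10.21 and 10.23 in the clone. The difference was small but larger than the spread of the arrays, -0.28 ± 0.05 (95% interval -0.39 to -0.16; adjusted p = 0.00741). With the median of chromosome 10 (0.20) removed it was -0.48 (adjusted p = 0.000874).

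**Figure D2:**
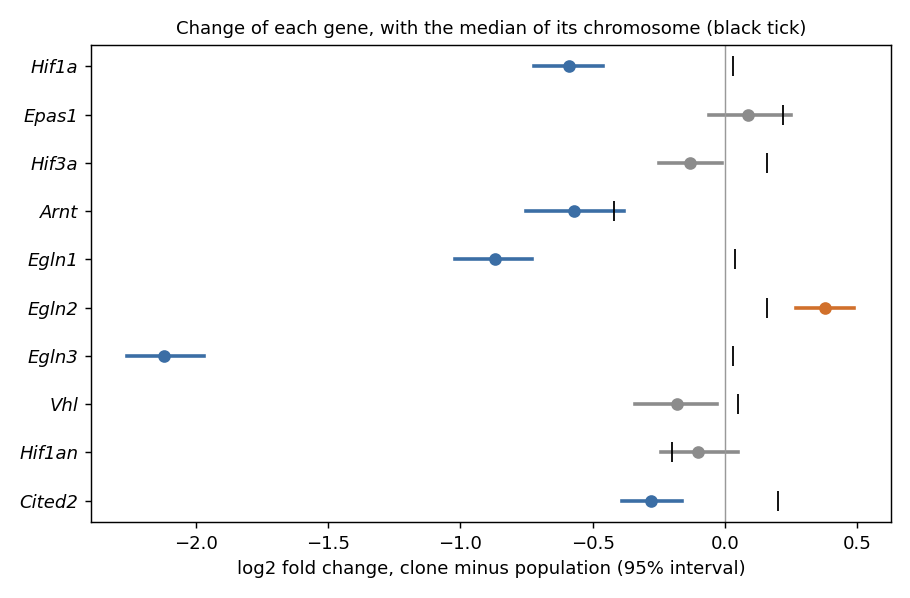
Log2 fold change of the 10 genes, clone minus population, with 95% intervals from limma; blue and orange mark genes that passed as lower and higher, grey those that did not. The black tick is the median log2 fold change of the genes above the median level on the same chromosome: Arnt at -0.57 lies near its tick at -0.42, while Egln3 at -2.12 and Egln1 at -0.87 lie far from theirs at 0.03 and 0.04. Epas1 and Hif3a lie below the median level, where that tick does not apply.

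Related genes were also compared within each array, by subtracting the log2 value of one from that of the other. Levels of different genes cannot be ranked in this way on arrays, but a shift in the difference shows that the pair changed unequally. Egln2 minus Egln1 was -2.10, -1.97 and -2.12 in the population and -0.78, -0.78 and -0.87 in the clone, a shift of 1.25 towards Egln2. Egln3 minus Egln1 was -2.31, -2.29 and -2.43 against -3.65, -3.55 and -3.55, a shift of -1.24. Thus the 3 prolyl hydroxylase genes moved by different amounts, Egln3 most strongly down and Egln2 up. Epas1 minus Hif1a shifted by 0.69 and Hif3a minus Hif1a by 0.46, with Epas1 and Hif3a near the low end of the arrays and Hif1a falling. The groups did not overlap in any of the 4 pairs, and each had a two-sided exact permutation p of 0.1 (0.1 adjusted over the 4 pairs). That is the smallest p that 3 arrays against 3 can give, so none could reach the threshold.

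**Figure D3:**
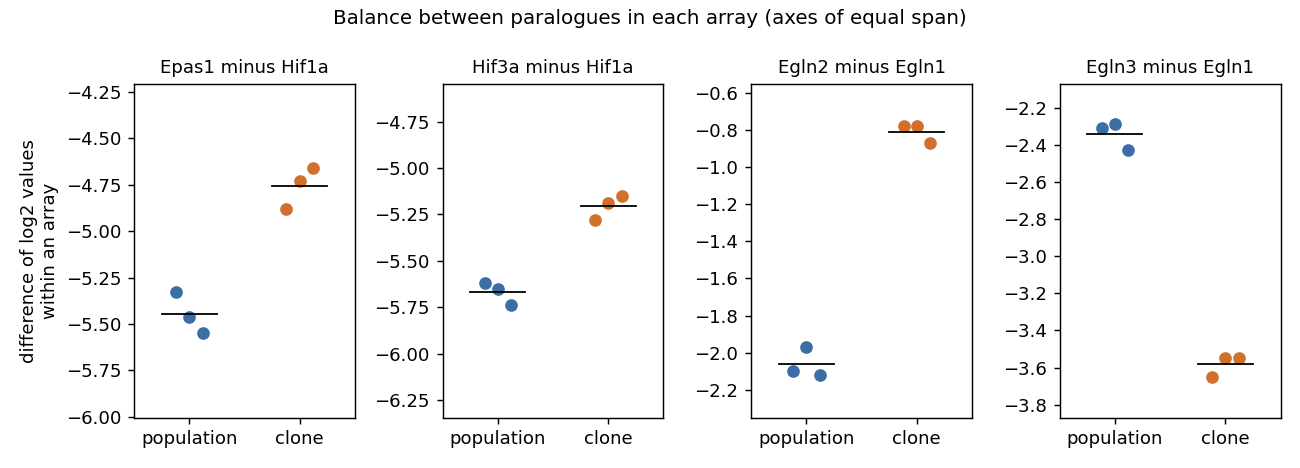
Difference of the log2 values of 2 related genes within each array, for 3 population arrays (blue) and 3 clone arrays (orange), with group means as black lines; the vertical axes differ in position but have the same span. The groups are apart in all 4 pairs, with shifts of 0.69, 0.46, 1.25 and -1.24 from left to right.

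The genes whose 6 array values ran most like those of Egln3 and Egln2 were sought among 13005 rows with 1 symbol above the median level, each centred on its population mean. Closest to Egln3 were Mustn1, a small nuclear protein of the musculoskeletal system, with a root mean square difference of 0.062 log2 units, the phosphodiesterase gene Pde3b (0.069) and the interferon gamma receptor gene Ifngr2 (0.069). Their log2 fold changes were -2.12, -2.09 and -2.19. Closest to Egln2 were Ist1 (listed as 2400003C14Rik), which acts in membrane scission (0.016), the kinase gene Lrrk1 (0.018) and the class I gene H2-Q2 (0.019), whose value is uncertain because it has near-identical relatives. With 2 groups of arrays, such likeness mostly reflects an equal difference between the groups.

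Transcripts of genes whose proteins work with the HIFs differed in both directions. Of 22 genes for partners, stability regulators and the Vhl ubiquitin ligase, 5 rose, 6 fell and 11 did not pass, with a median log2 fold change of 0.01. The share that passed, 50%, was near the 42.1% of all rows above the median level, and is not a result about these genes. In the ligase itself, Rbx1, its RING subunit, fell from 10.80 ± 0.07 to 9.89 ± 0.08 (-0.91 ± 0.06, adjusted p = 0.000114). Eloc (listed as Tceb1), the elongin C gene, fell from 10.28 ± 0.09 to 9.70 ± 0.05 (-0.58 ± 0.06, adjusted p = 0.000922). The scaffold gene Cul2 (0.05 ± 0.06, adjusted p = 0.647) and the elongin B gene Elob, listed as Tceb2 (0.14 ± 0.08, adjusted p = 0.296), did not pass; both were named after their values were seen. By symbol Rbx1 lies on chromosome 15, whose genes above the median level had a median of -0.50. With that median removed Rbx1 stood at -0.41 (adjusted p = 0.00455). The row used, however, has an array identifier among those of chromosome 17 genes such as Elob and H2-Q2. Whether it measures Rbx1 itself is therefore uncertain, and so are its fall and this correction.

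The ubiquitin ligases encoded by Siah1a and Siah2 can target prolyl hydroxylases for degradation. Siah1a rose by 0.58 ± 0.07 (adjusted p = 0.00142) and Siah2 fell from 6.75 ± 0.16 to 6.25 ± 0.15 (-0.49 ± 0.11, adjusted p = 0.0164). Siah2, on chromosome 3, stood at -0.07 (adjusted p = 0.753) with the chromosome median removed. Senp1, a protease that removes SUMO, had a log2 fold change of -0.89 ± 0.09 (adjusted p = 0.000469), and of -0.39 with the median of chromosome 15 removed (adjusted p = 0.02). Rises were found for the coactivator gene Crebbp (0.41), the SUMO ligase gene Pias4 (0.36) and Os9 (0.31), a lectin of the endoplasmic reticulum. With the median of chromosome 10 (0.20) removed, Pias4 stood at 0.16 (adjusted p = 0.205) and Os9 at 0.11 (adjusted p = 0.216).

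Hif1a and Arnt belong to the bHLH-PAS proteins, transcription factors that share a dimerisation domain. Of 18 relatives and their PAS-containing cofactors, 3 rose, 5 fell and 10 did not pass (median -0.04). The 44.4% that passed was close to the 42.1% of rows above the median level. Ahr, the aryl hydrocarbon receptor that pairs with Arnt, rose from 7.66 ± 0.08 to 8.38 ± 0.07 (0.72 ± 0.06, adjusted p = 0.00033). The coactivator genes Ncoa1 (0.72) and Ncoa2 (0.46) rose while Ncoa3 fell (-0.85 ± 0.09, adjusted p = 0.000723). The population level of Ncoa1 (5.03) lay below the array medians. Bmal1, listed as Arntl (-0.75 ± 0.05), Per3 (-0.57) and Clock (-0.39), which act in the circadian clock, also fell. Their relatives Per1 (-0.06), Per2 (0.03) and Npas2 (-0.02), named after their values were seen, did not pass. Arnt2, a close relative of Arnt, stood at 5.63 ± 0.13 and 5.68 ± 0.02, a difference that was not called (adjusted p = 0.745).

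The Egln and Hif1an enzymes belong to the 2-oxoglutarate-dependent oxygenases, which use oxygen and iron. Of 44 other members listed, 43 were matched to a row, and of these 7 rose, 14 fell and 22 did not pass (median -0.05). The 48.8% that passed was again near the 42.1% of rows above the median level, of which 22.8% were higher and 19.3% lower. The collagen prolyl and lysyl hydroxylases, which modify collagen chains in the endoplasmic reticulum, had 6 of 9 lower and 1 higher (median -0.70). Plod2 fell from 11.36 ± 0.07 to 9.53 ± 0.09 (-1.83 ± 0.07, adjusted p = 9.89e-06). P4ha2 (-1.38), P4ha1 (-1.12) and P3h3, listed as Leprel2 (-0.73), also fell, while P3h2, listed as Leprel1, rose (0.80 ± 0.07, adjusted p = 0.000248). Plod2, P4ha1 and P4ha2 are known targets of HIF and also stand in the list of hypoxia response genes below. The histone lysine demethylases had 6 of 18 higher and 3 lower (median 0.02), with Kdm7a, listed as Jhdm1d, at 1.12 ± 0.15 (adjusted p = 0.0022), Kdm2b, listed as Fbxl10, at 0.70 and Kdm8, listed as Jmjd5, at 0.56. The population level of Kdm8 (4.89) lay below the array medians. With the chromosome medians of genes above the median level removed, 19 of the 43 passed instead of 21. Phf2 (-0.10), Kdm5b (0.21), Phf8 (0.33) and P3h1 (-0.06) then lost their calls. Kdm4b (-0.41, adjusted p = 0.00322) and Plod3 (-0.26, adjusted p = 0.0176) passed as lower. These 6 genes were named after their values were seen, and other members of the list changed calls too.

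Transcripts that HIFs are known to induce were lower as a group. Of 40 such genes, 32 fell, 2 rose and 6 did not pass, with a median of -0.86 and a range of -3.70 to 0.61. The share that passed was 85%, against 23.8% of all rows and 42.1% of rows above the median level. That glycolysis and hypoxia genes were lower in the clone was known when this list was chosen, so the count is a description. Ndrg1, a stress-response gene, went from 9.44 ± 0.07 to 5.74 ± 0.21 and Slc16a3, the lactate exporter gene, from 9.12 ± 0.04 to 5.56 ± 0.17. The adenylate kinase gene Ak4, listed as Ak3l1 (-2.25), and Ero1a, listed as Ero1l (-2.04), an oxidase of disulfide formation, followed. Nampt, an enzyme of NAD synthesis, rose by 0.61 ± 0.12 (adjusted p = 0.00976) and the row listed as Pgm1, a phosphoglucomutase gene, by 0.32 ± 0.08 (adjusted p = 0.0306). By its present symbol Pgm1 lies on chromosome 4, but the row's array identifier lies next to those of chromosome 5 genes such as Pdgfra. Which phosphoglucomutase gene this row measures is therefore uncertain, and the count of 2 that rose includes it. The 6 that did not pass were Adm, Car9, Aldoc, Gapdh, Mif and Kdm3a. They were named after their values were seen, and Car9 (4.62 and 4.61) and Aldoc (4.55 and 4.49) lay below the array medians in both groups. With the chromosome medians of genes above the median level removed, 37 of the 40 passed. Adm (-0.33, adjusted p = 0.00732), Mif (-0.33, adjusted p = 0.0106) and Gapdh (-0.23, adjusted p = 0.0432) then passed as lower. The rows used for Gapdh and Mif have array identifiers outside those of chromosomes 6 and 10, where these genes lie by symbol, so their values are uncertain. Egln3 at -2.12, Egln1 at -0.87, Cited2 at -0.28 and Egln2 at 0.38 all lay within the full range of this list; Egln3 lay below its median, Egln1 next to it, and Cited2 and Egln2 above it.

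**Figure D4:**
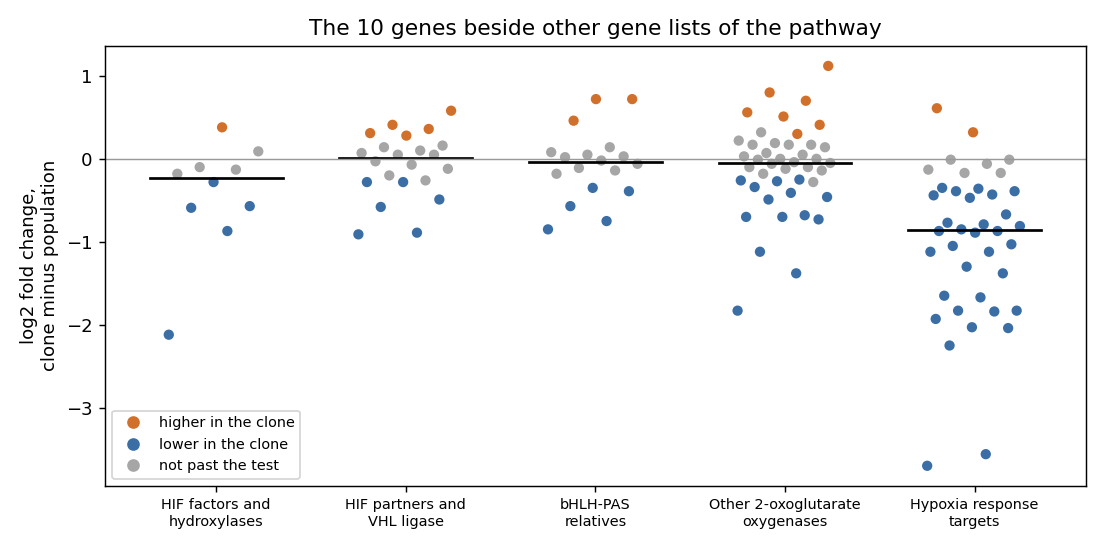
Log2 fold change, clone minus population, of the 10 genes and of the 4 other gene lists; each point is a gene, orange and blue passed the test as higher and lower, grey did not, and black lines are list medians (-0.23, 0.01, -0.04, -0.05 and -0.86 from left to right). The hypoxia response genes lie mostly below 0, while the partners, relatives and other oxygenases spread to both sides. A gene that stands in more than one list is drawn in each.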

How the data were processed

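Biotin-labelled cRNA made from total RNA was measured on Affymetrix arrays, per the labels' protocols. Each row of the deposited value table is a log2 expression value per array, for which Partek and RMA are named, without a version, per the submitters' processing notes. RMA corrects background, quantile-normalizes arrays and summarises probes, so values are relative to the rest of the array and changes of dim genes are compressed. Sources used here do not name the array type or genome build. A second deposited table, by the authors, gives, per the file headers, an unadjusted p-value per row and a signed linear fold score of clone over population. Its fold matched the difference of group means to within 7.8e-05 (log2). Its 6 columns of per-array values carry names found in no label and were left out.

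Groups came from the labels. A 2-group model of all 35556 rows was made in R 4.3.3 with lmFit and eBayes of limma 3.58.1 at their defaults and no covariates (residual degrees of freedom 4, prior 2.72). Two-sided p-values were adjusted over all rows by the Benjamini-Hochberg method, and those under 0.05 were called. Every adjusted p printed for a gene comes from this fit unless another setting is named. The fit was tested on simulated data. Precision is limited by the number of arrays, since depth has no meaning here. Gene rows with the highest mean were used, matched by symbol or, for the lists, also by older symbol through RefSeq (GRCm38.p6), which also gave chromosomes and promoters. Chromosome medians cover named genes, 1 row each. Chromosomes were assigned by symbol, not by the position of the probes. The array identifiers of a few list rows, Rbx1, Pgm1, Gapdh and Mif among them, lie among those of other chromosomes.

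All 10 genes are named, with up to 4 genes per list and direction that passed and changed most, 3 nearest genes each for the largest rise and fall, and a few markers; exceptions are stated. The genes and lists were chosen with earlier results of these data known.

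Settings also tried were a block for the sample number, a repeated quantile normalization, arrays centred on their medians, rows above the median level only, trend with robust moderation, no moderation, array weights, an adjusted p under 0.01, the deposited p-values, rows of a gene averaged, chromosome medians removed over all named genes or, added after seeing the data, over genes above the median level, and leaving out each array.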

Additional observations from a re-analysis of the deposited data

How the results depend on the processing

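The counts of 1 gene higher and 5 lower among the 10 were 1 and 5 to 6 in all 18 alternatives, leaving out single arrays included. The calls of Hif1a, Egln1, Egln2, Egln3 and Cited2 held in all 18. Arnt lost its call in 1 of them, with medians of its chromosome's genes above the median level removed (-0.14), and Hif1an turned to 0.11 there; Vhl passed there (-0.23) and without population array 3 (-0.24). Shifts between related genes ranged from 1.22 to 1.30 (Egln2 minus Egln1), -1.28 to -1.21 (Egln3 minus Egln1), 0.64 to 0.75 (Epas1 minus Hif1a) and 0.42 to 0.50 (Hif3a minus Hif1a) without single arrays. The 11 changed genes among HIF partners became 6 at an adjusted p under 0.01, 7 with the deposited p-values and 7 without moderation, and the 8446 rows changed became 5252 at an adjusted p under 0.01. The causes of these changes were not tested. Without single arrays the counts were 8 to 11 for partners, 8 for PAS relatives, 17 to 19 for oxygenases, 32 to 33 for hypoxia genes and 6630 to 7585 for all rows.

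The labels number the samples 1 to 3 in both groups and do not say whether the numbers pair them. Same-numbered arrays did not deviate together (correlations of -0.18, -0.14 and -0.04). With 3 arrays per group, each centred on its group mean, these values cannot decide whether the arrays were paired. With the number as a replicate block 6669 rows and 5 of the 10 genes as lower and 1 as higher passed. With only rows above the median level, Epas1 and Hif3a gave no value.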
